A study of Mus musculus with 6 samples.

Results

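Hepcidin and the genes of iron uptake, storage and export were read in livers of mice overdosed with acetaminophen (APAP) and in livers of saline mice. The 10 genes were Hamp and Hamp2 (the hepcidin genes), Bmp6 and Id1 (a ligand and a target of the pathway that drives hepcidin), Tfr2, Tfrc and Trf (iron sensing and uptake), Fth1 and Ftl1 (storage) and Slc40a1 (export). They were found by gene name among the 34745 genes of the deposited table, 1 row each, and all 10 passed the filter on low counts, as did 13734 genes in all.

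The mice were WT C57BL/6J animals aged 8 to 10 weeks, described as male in the study's methods, and both groups were fasted for 12 hours before an intraperitoneal injection. The APAP group received 300 mg/kg and its livers were taken 12 hours later, and the control group received saline. The labels give 3 samples per group. The 5 libraries described are APAP replicates 1 and 3 and the controls WT1, WT2 and WT3, and APAP replicate 2 was not analysed here. The WT columns were taken for saline since the remaining columns carry the name of APAP, and their numbers are not tied to the numbered saline samples. The methods speak of at least 3 biological repeats for all experiments, and the labels do not tie a library to an animal, so p-values measure the spread between these samples, part of which may be technical.

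Sex-linked genes went against the description of all mice as male. Xist, the RNA of the inactive X chromosome, was at 0.764 and 1.73 CPM (counts brought to a common library size after TMM normalization) after APAP, and at 289.6, 914 and 882 CPM after saline, and the Y-linked Ddx3y was at 78.97 and 61.7 CPM against 0, 0 and 0.0668 CPM. Sex-linked expression and treatment therefore cannot be told apart in any comparison below. Whether the WT columns come from the saline mice described above cannot be settled from the labels, and saline in what follows means these columns. Library depth was similar, with totals of 13378445 to 15976339 counts. Marker genes of hepatocytes, the main cell of the liver, were abundant in every library (Alb at 51544 to 129117 CPM), but the sum of 10 hepatocyte markers was 73711 and 118484 CPM with APAP and 128097 to 171655 CPM with saline. The sum of 10 neutrophil markers was 85.8 to 126 CPM with APAP and 6.38 to 10.6 CPM with saline (S100a9, the most abundant, at 41.5 and 30.3 CPM against 1.61, 1.13 and 2.004 CPM). Ly6g had 4 and 8 counts with APAP and no count in the saline libraries, and it did not pass the filter for testing. Sums overlapped between the groups for Kupffer cells (324 to 555 against 344 to 500.2 CPM), sinusoidal endothelial cells (189.7 to 284 against 195 to 326 CPM), stellate cells (403 to 557 against 532 to 623 CPM) and erythroid cells (45.2 to 146 against 62.4 to 80.3 CPM). The most abundant markers of these lists also overlapped, namely Cd5l (55.6 and 120 against 63.6 to 93.8 CPM), Stab1 (41.4 and 50.1 against 26.7 to 43.98 CPM), Dcn (193 and 206 against 198 to 252 CPM) and Hbb-bs (24.1 and 71.8 against 32.7 to 44.2 CPM). Some other markers of these lists did not overlap, as 44.1% of all genes did not. Higher with APAP were Marco (56.7 and 123 against 7.51 to 30.9 CPM), Lyve1, Pdgfrb and Col1a1. Of these, Col1a1 had an adjusted p of 0.0498 in the quasi-likelihood test of edgeR. Lower with APAP were Vsig4 (22.9 and 32.1 against 34.4 to 46.2 CPM), Ecm1 and Klf1. The monocyte sum overlapped too (1522 to 2122 against 1253 to 1697 CPM), but most of it was Fn1, which hepatocytes also make (1415 and 1954 against 1166 to 1583 CPM). Of the other monocyte markers, Chil3 (24.9 and 22.99 against 0.179 to 0.267 CPM, adjusted p = 0.000583) and Ccr2 (5.35 and 8.53 against 2.004 to 2.46 CPM, adjusted p = 0.0401) were higher with APAP in the quasi-likelihood test of edgeR, and Plac8 and Ms4a6c did not overlap between the groups. In bulk liver, fewer cells of a type and less RNA per cell cannot be told apart, and the part of these shifts in the results was not tested.

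Hepcidin is a small peptide hormone of hepatocytes that binds ferroportin, the iron exporter, and causes its degradation, so that less iron enters the plasma. Its transcription is raised by BMP6 from sinusoidal endothelial cells, acting through SMAD proteins with the help of hemojuvelin, HFE and transferrin receptor 2, and by interleukin 6 acting through STAT3. Within cells, iron regulatory proteins bind hairpins called iron responsive elements, which block translation of ferritin and ferroportin and protect the transferrin receptor mRNA from decay when iron is low.

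The mouse carries a pair of hepcidin genes side by side, and their promoters are shown because Hamp and Hamp2 had different levels relative to each other in the 2 groups. The 120 bases before each gene start are given 5′ to 3′ from RefSeq (GRCm38.p6, minus strand, chr7:30944030-30944149 for Hamp and chr7:30924182-30924301 for Hamp2). For Hamp2 this is the start in RefSeq, which lies inside the span of the counted gene, since that begins farther upstream at 30924681. Capitals mark the hexamer GGCGCC, known as the BMP responsive element of hepcidin genes, and TTCNNNGAA, the form of a STAT site.
Hamp: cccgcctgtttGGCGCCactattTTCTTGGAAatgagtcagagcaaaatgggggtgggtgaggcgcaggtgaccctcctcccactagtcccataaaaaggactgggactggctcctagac
Hamp2: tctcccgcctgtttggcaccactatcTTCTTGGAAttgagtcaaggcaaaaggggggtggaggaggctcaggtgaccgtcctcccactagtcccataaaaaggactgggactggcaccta
The stretches were 90.6% identical over 117 aligned bases. Hamp held both motifs, whereas Hamp2 held the STAT form and, at the aligned place of the hexamer, GGCACC, a difference of G4A counted from 1 at the 5′ end of the hexamer. Both motifs read the same on either strand. Among 32851 promoters searched over 250 bases, 9.59% held GGCGCC and 7.02% held TTCNNNGAA. Of the 7 members with a promoter in RefSeq's table, the hexamer was also found before Tfrc, and TTCNNNGAA before no other member. Slc40a1, Trf and Id1 were not searched.

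**Figure D1:**
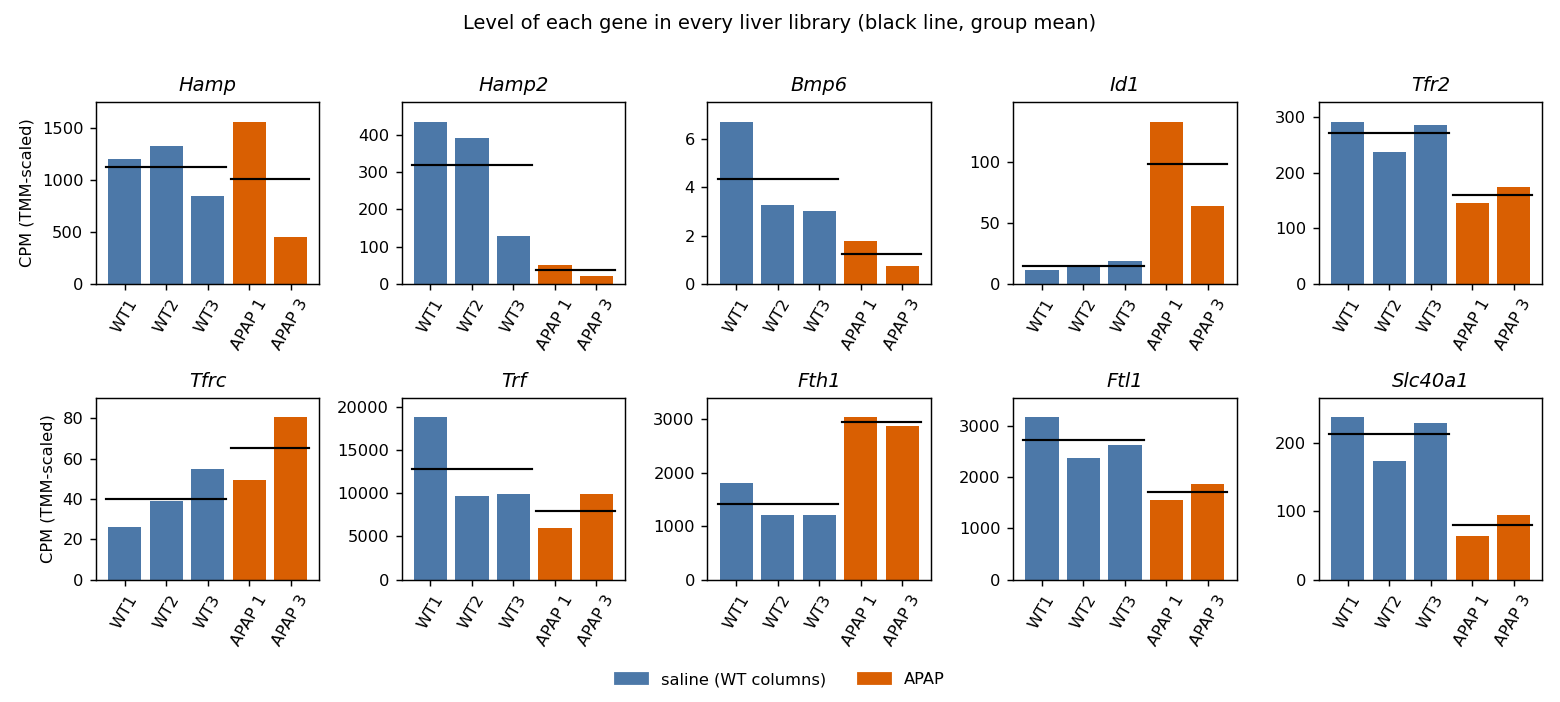
Level of each of the 10 genes in every library, in CPM on linear axes that start at 0, with saline libraries in blue, APAP libraries in orange and black lines at the group means. Hamp2, Bmp6, Tfr2, Ftl1 and Slc40a1 were lower in each APAP library than in any saline library, Id1 and Fth1 were higher in both, and Hamp, Tfrc and Trf overlapped.

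Of the 10 genes, 3 passed an adjusted p of 0.05 in the quasi-likelihood test of edgeR (Benjamini-Hochberg over all genes tested), which is named a call in what follows, where 7.23% of all genes did. Id1 rose, against 3.70% of all genes that were higher, and Hamp2 and Slc40a1 fell, against 3.53% that were lower. Higher genes were 508 of the 993 called and, with scaling to library size only, 1042 of 1339. By the thresholds the study names (at least 1.5-fold, unadjusted P under 0.05), 6 of the 10 passed in the present fit, where 23.5% of all genes did. The study reports fewer genes at these thresholds than passed in this fit. Fth1 and Id1 were higher (12.3% of all genes) and Hamp2, Tfr2, Slc40a1 and Bmp6 were lower (11.2% of all genes). With scaling to library size only 5 passed, of which 3 were higher, as Tfr2 (unadjusted P = 0.116) and Bmp6 (0.068) no longer did and Tfrc (0.0315) did. For 7 of the 10 there was no overlap between the groups, against 44.1% of all genes. The median log2 fold change was −0.68 over the 10 genes and 0.03 over all genes tested.
These calls rest on few libraries. Without WT2 none of the 10 genes had an adjusted p under 0.05 in the quasi-likelihood test (5 passed the thresholds of the study), without WT3 2 did, and without WT1 1 did. Calls over all genes tested fell as well, from 993 to 165 of 13443 without WT2, 922 of 13481 without WT3 and 510 of 13700 without WT1. The share of all genes that passed the study's thresholds is given only for the fit to all libraries with TMM scaling.

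**Figure D2:**
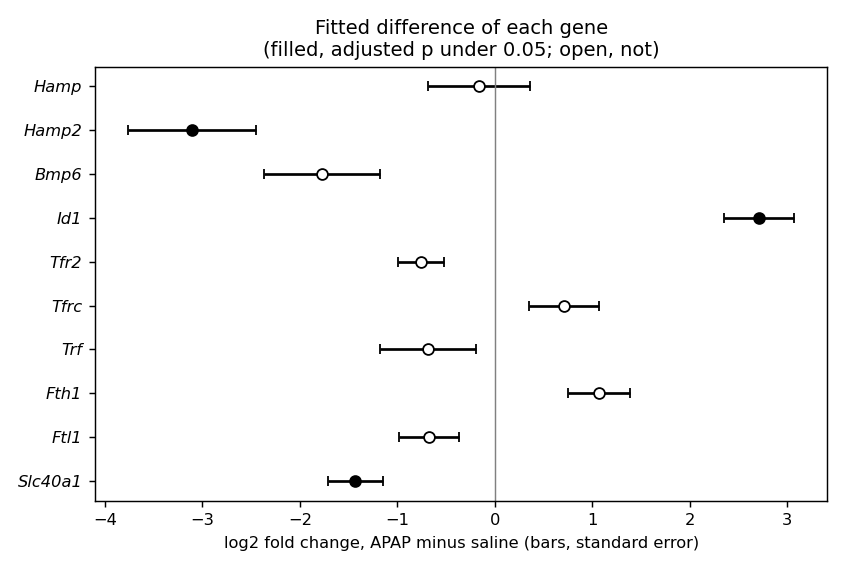
Fitted log2 fold change (APAP minus saline) of each gene on the x axis, with its standard error as the bar, and filled points for an adjusted p under 0.05. Id1 lies at 2.71, Slc40a1 at −1.43 and Hamp2 at −3.11, and Hamp lies near 0.

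Hamp (ENSMUSG00000050440, chromosome 7 of GRCm38, 30942368 to 30944032), which encodes the hormone itself, was at 1558 and 451 CPM in APAP replicates 1 and 3 and at 1197, 1325 and 847 CPM in WT1, WT2 and WT3. The APAP libraries were thus the highest and the lowest of the 5. Means were 1004 ± 782 CPM (SD, n = 2) with APAP and 1123 ± 247 CPM (SD, n = 3) with saline. The log2 fold change of −0.16 (standard error, SE, 0.52) had an adjusted p of 0.884 in the quasi-likelihood test of edgeR, and it was −1.31 when APAP replicate 1 was left out and 0.46 when replicate 3 was. A change of Hamp was therefore not detectable with these libraries, and its direction was set by the choice of APAP library and of scaling (0.29 with scaling to library size only).

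Hamp2 (ENSMUSG00000056978, chromosome 7, 30922389 to 30924681), the second hepcidin gene, whose product is not known to control iron as Hamp does, was lower with APAP. It was at 51.9 and 22.1 CPM after APAP, and at 436, 392 and 129 CPM after saline. All saline libraries lay above both APAP libraries, and WT3 was the lowest of them. The APAP mean of 37.0 ± 21.0 CPM (SD, n = 2) was 11.6% of the saline mean of 319 ± 166 CPM (SD, n = 3). Its log2 fold change was −3.11 (SE 0.65, adjusted p = 0.0391 in the quasi-likelihood test of edgeR). Leaving out APAP replicate 1 gave an adjusted p of 0.115 and leaving out replicate 3 gave 0.143, and it was 0.0874 without WT1 and 0.125 without WT2, with log2 fold changes of −2.63 to −3.85 in all settings tried. Hepcidin genes of the mouse are known to differ in level between the sexes, and the sex-linked genes above separated the same libraries.

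Reads of the pair can be confused only in part. Of the 50-base words of the Hamp transcript, 16.6% occur in Hamp2, and 15.5% of those of Hamp2 occur in Hamp. The transcripts were 94.6% identical over 410 aligned bases. Hamp2 also overlaps exons of Gm44662 on the opposite strand, and whether the counting used strand is not given in the sources used here.
The ratio of Hamp to Hamp2 counts, which no scaling of the libraries can change, was 30.02 and 20.4 after APAP and 2.74, 3.38 and 6.57 after saline. This ratio was chosen after the values were seen and was not tested. APAP replicates 1 and 3 differed 3.45-fold in Hamp and 2.34-fold in Hamp2, both higher in replicate 1, so that the ratio was closer between them than Hamp itself was.

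**Figure D3:**
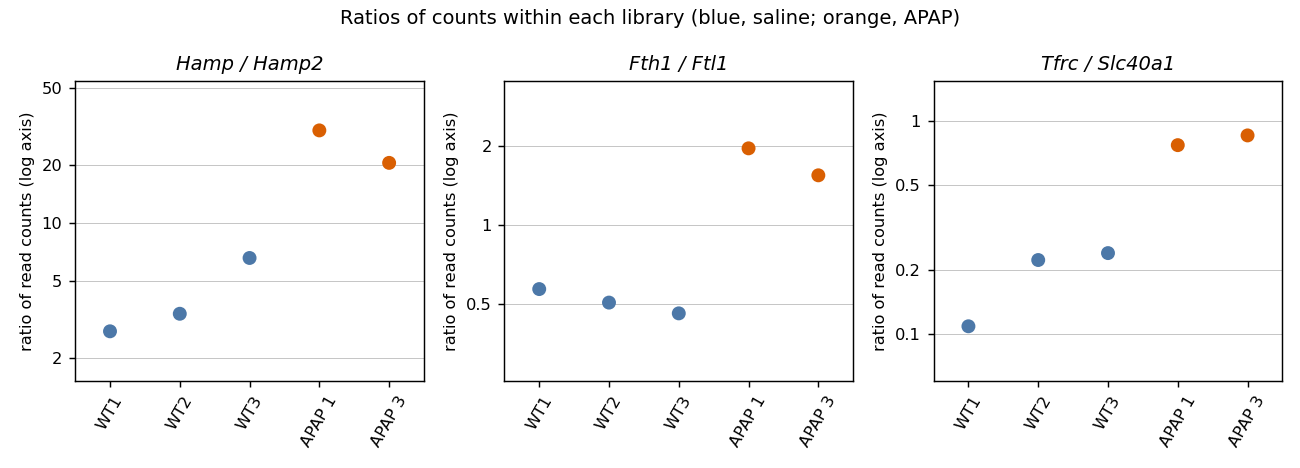
Ratio of read counts of 2 genes within each library, on log axes, for saline (blue) and APAP (orange) libraries. Hamp to Hamp2 lies at 20.4 and above with APAP and at 6.57 and below with saline, Fth1 to Ftl1 at 1.54 and 1.95 against 0.463 to 0.572, and Tfrc to Slc40a1 at 0.768 and 0.853 against 0.108 to 0.239.

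Bmp6 and Id1, the ligand upstream of hepcidin and a target of the same signal, lay on opposite sides. Bmp6 (ENSMUSG00000039004, chromosome 13, 38345716 to 38499728) was at 1.76 and 0.742 CPM after APAP, compared with 6.72, 3.26 and 3.01 CPM in saline livers. These are low levels, from 12 to 75 counts per library. The log2 fold change of −1.77 (SE 0.59) had an adjusted p of 0.124 in the quasi-likelihood test. Among 13 alternative fits, only DESeq2 gave an adjusted p under 0.05 (0.0366). Exons of Bmp6 overlap those of Txndc5 on the opposite strand, which had 896 to 2786 counts, and 4.94% of the 50-base words of Bmp6 lie there. The sum of endothelial markers given above overlapped between the groups, and the part of these cells in the level of Bmp6 was not tested.

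Id1 (ENSMUSG00000042745, chromosome 2, 152736251 to 152737410), an inhibitor of helix-loop-helix transcription factors and a standard readout of BMP signaling, was at 133 and 63.7 CPM after APAP, compared with 11.4, 14.9 and 18.6 CPM in saline livers. Both APAP libraries were far above the highest saline library. The means were 98.2 ± 48.7 CPM (SD, n = 2) and 14.99 ± 3.63 CPM (SD, n = 3), a ratio of 6.55. Its log2 fold change of 2.71 (SE 0.36, adjusted p = 0.0104 in the quasi-likelihood test of edgeR) was between 2.09 and 3.13 in the 13 alternatives, of which the one without WT2 gave an adjusted p of 0.0663. No 50-base word of the Id1 transcript occurs in another gene.

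Among the 6 other target genes of BMP and SMAD signaling, 1 passed the test, where 7.23% of all genes did, with a median log2 fold change of 0.30. This was Smad7, an inhibitory SMAD that BMP and TGF-beta signals induce, at 36.3 and 21.5 CPM against 8.25, 13.2 and 11.4 CPM (log2 fold change 1.40, SE 0.31, adjusted p = 0.0424 in the quasi-likelihood test of edgeR). Its adjusted p was above 0.05 whichever of the 5 libraries was left out. Id3, a relative of Id1, was at 92.4 and 59.4 CPM against 45.2, 44.8 and 41.2 CPM (adjusted p = 0.0955 from the same test). Atoh8, a transcription factor that binds the Hamp promoter, was at 53.6 and 10.8 CPM against 52.07, 39.5 and 23.2 CPM and overlapped between the groups.
In APAP replicate 1 the levels of Id1, Id2, Id3, Smad6, Smad7 and Atoh8 were 1.56 to 4.98 times those in APAP replicate 3, while Id4 was at 0.815 times. Hamp had a ratio of 3.45 between these libraries. Over all genes tested, 48.1% were higher in replicate 1, and 2.54% had a ratio at least as large as that of Hamp. These values describe 2 libraries and carry no test.

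Ligands, receptors and modulators of the BMP pathway gave 1 call among 19 tested genes, where 7.23% of all genes were called, with a median log2 fold change of −0.27. By the thresholds the study names, 2 were higher (Neo1 and Fgl1) and 4 lower (Hfe, hemojuvelin, Tmprss6 and Bmp2), against 12.3% and 11.2% of all genes. Hfe, which senses iron together with the transferrin receptors, fell from 74.2, 53.7 and 55.2 CPM to 28.9 and 28.6 CPM (log2 fold change −1.09, SE 0.23, adjusted p = 0.0395 in the quasi-likelihood test of edgeR). The call was lost without WT1, WT2 or either APAP library and with scaling to library size only (log2 fold change −0.67). Hemojuvelin, the BMP coreceptor listed under its older symbol Hfe2, was at 55.6 and 36.9 CPM against 86.9, 89.02 and 102 CPM (adjusted p = 0.0604). Tmprss6, the protease that cleaves hemojuvelin, was at 166 and 241 CPM against 624, 442 and 366 CPM (adjusted p = 0.0763). Neither passed the quasi-likelihood test. In TMM-scaled CPM the groups did not overlap in either, which held for 44.1% of all genes tested. Bmp2, the other endothelial BMP that feeds hepcidin, was at 7.70 and 12.7 CPM against 21.6, 20.2 and 15.03 CPM (adjusted p = 0.126). Neo1, from the same list, went the other way, at 24.7 and 39.4 CPM against 19.7, 21.7 and 19.3 CPM (adjusted p = 0.158 in the quasi-likelihood test).
Fgl1, a hepatocyte protein known to antagonize BMP signaling to hepcidin, was at 1341 and 1289 CPM against 801, 438 and 846 CPM (adjusted p = 0.160 from the same test). Erythroferrone, the erythroid suppressor of hepcidin listed as Fam132b, had 35 and 5 counts with APAP and 0 in each saline library, where 3 counts correspond to between 0.199 and 0.269 CPM, and it did not pass the filter for testing. With no filter beyond 1 count in any library its adjusted p was 0.0314 in the quasi-likelihood test of edgeR, and most of its counts were in APAP replicate 1.

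The inflammatory input to hepcidin was read from 9 genes, of which 8 were tested and 1 rose, where 3.70% of all genes did, with a median log2 fold change of 0.49. Socs3, the feedback inhibitor that STAT3 induces, was at 38.0 and 33.7 CPM after APAP against 7.35, 4.78 and 14.1 CPM after saline. Both APAP libraries lay above all saline libraries, with a log2 fold change of 2.03 (SE 0.42, adjusted p = 0.0374 in the quasi-likelihood test of edgeR), and the call was lost without either APAP library, WT1 or WT2. Il6 itself had 0 and 2 counts with APAP and 0, 0 and 5 counts with saline, too few to test. Inhbb, the subunit of activin B, was at 8.81 and 22.3 CPM against 4.66, 3.26 and 13.4 CPM and overlapped (adjusted p = 0.338).

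**Figure D4:**
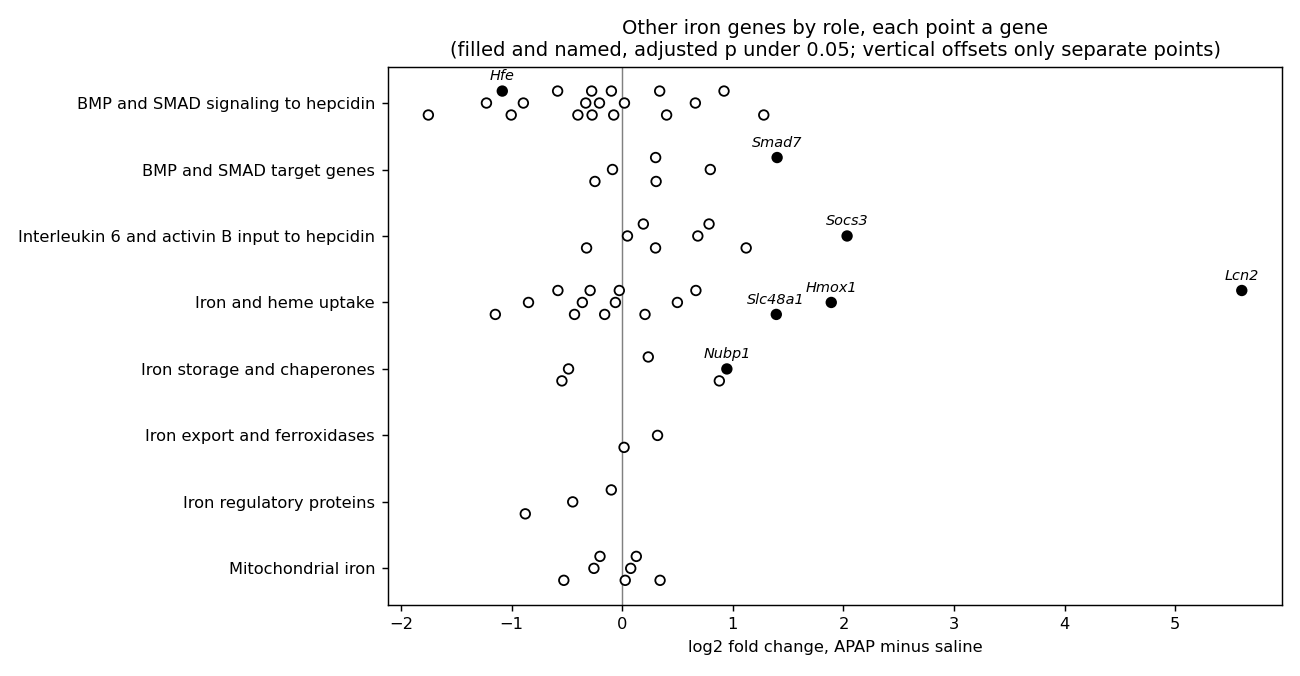
Log2 fold change (APAP minus saline) of 65 tested iron genes other than the 10 above, by role, with filled and named points for an adjusted p under 0.05. The named genes are Hfe at −1.09 and, on the other side, Nubp1, Slc48a1, Smad7, Hmox1, Socs3 and Lcn2, the last at 5.60.

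Iron responsive elements are shown for the members whose principal transcripts matched the search below. These elements are the sites through which uptake, storage and export share control after transcription. The search asked for C, 5 bases, the loop CAGTGN and 5 bases that pair with the first 5 (G-U pairs allowed), on the transcript strand in GENCODE M21 (GRCm38). Capitals mark the bulged C and the loop.
Fth1, 5′ UTR, chr19:9982733-9982760, plus strand: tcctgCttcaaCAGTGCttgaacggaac
Ftl1, 5′ UTR, chr7:45459779-45459806, minus strand: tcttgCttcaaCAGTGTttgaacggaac
Slc40a1, 5′ UTR, chr1:45925465-45925492, minus strand: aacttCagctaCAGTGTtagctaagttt
Tfrc element 1, 3′ UTR, chr16:32631220-32631247, plus strand: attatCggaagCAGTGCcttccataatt
Tfrc element 2, 3′ UTR, chr16:32631599-32631626, plus strand: attatCgggagCAGTGTcttccataatg
Tfrc element 3, 3′ UTR, chr16:32631664-32631691, plus strand: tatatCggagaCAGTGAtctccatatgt
Tfrc element 4, 3′ UTR, chr16:32631711-32631738, plus strand: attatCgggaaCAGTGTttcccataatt
Of 21870 principal transcripts, 0.096% held such a hairpin in the 5′ UTR and 0.476% in the 3′ UTR. In the list of iron genes these 4 were the only ones matched by this search. A match is a description of the sequence, and elements of another form or in another transcript would be missed.

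None of the 3 transcripts for transferrin and its receptors passed an adjusted p of 0.05 in the quasi-likelihood test of edgeR (with DESeq2 Tfr2 did, and Tfr2 alone had an unadjusted P under 0.05). Tfrc (ENSMUSG00000022797, chromosome 16, 32608920 to 32632794), the receptor that takes up transferrin, was at 49.5 and 80.5 CPM after APAP, compared with 25.8, 38.7 and 54.8 CPM in saline livers. Replicate 1 of APAP lay below WT3, so the groups overlapped. The log2 fold change of 0.71 (SE 0.36) had an adjusted p of 0.279 in the quasi-likelihood test, and it was positive in all 13 alternatives.
Tfr2 (ENSMUSG00000029716, chromosome 5, 137569840 to 137587481), the hepatocyte sensor of transferrin iron, was at 146 and 175 CPM after APAP, compared with 292, 237 and 286 CPM in saline livers. The groups did not overlap, and the log2 fold change was −0.76 (SE 0.24, unadjusted P = 0.0155, adjusted p = 0.107 from the quasi-likelihood test). Among the 13 alternatives, only DESeq2 gave an adjusted p under 0.05 (0.0092). Trf (ENSMUSG00000032554, chromosome 9, 103204001 to 103230444), the plasma carrier of iron, was at 5988 and 9891 CPM after APAP, compared with 18843, 9647 and 9902 CPM in saline livers. The groups overlapped, and WT1 stood above the other 4 libraries (log2 fold change −0.69, SE 0.49, adjusted p = 0.442). Exons of Trf overlap those of Gm20425 on the same strand, which holds 79.8% of its 50-base words and had 216 to 617 counts.

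The ferritin subunits lay on opposite sides. Fth1 (ENSMUSG00000024661, chromosome 19, 9982703 to 9985092), the heavy chain with ferroxidase activity, was at 3040 and 2873 CPM after APAP, compared with 1815, 1208 and 1216 CPM in saline livers. Both APAP libraries were above the highest saline library, and their mean was 2.09 times that of saline livers. The log2 fold change of 1.06 (SE 0.32, unadjusted P = 0.0124) had an adjusted p of 0.0937 in the quasi-likelihood test, and the adjusted p was under 0.05 in 4 of 13 alternatives, namely DESeq2 (0.00611), edgeR's likelihood ratio test (0.0227) and exact test (0.0231), and scaling to library size only (0.0145).
Ftl1 (ENSMUSG00000050708, chromosome 7, 45457944 to 45459884), the light chain that supports the mineral core, was at 1555 and 1861 CPM after APAP, compared with 3174, 2378 and 2629 CPM in saline livers. The groups did not overlap, with a log2 fold change of −0.68 (SE 0.31, adjusted p = 0.236 from the quasi-likelihood test). Only DESeq2, of the 13 alternatives, gave Ftl1 an adjusted p under 0.05 (0.038). Its count is uncertain, because 90.6% of its 50-base words occur in other annotated genes, such as the pseudogene Ftl1-ps1, against 6.59% for Fth1. Of these genes Ftl2-ps was found by name among the counted genes, with 0 to 2 counts. The ratio of Fth1 to Ftl1 counts was 1.95 and 1.54 with APAP and 0.572, 0.508 and 0.463 with saline, so that the heavy chain had more reads than the light chain in both APAP libraries and fewer in all saline libraries. This ratio, like that of Hamp to Hamp2, was chosen after the values were seen and has no test.

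Slc40a1 (ENSMUSG00000025993, chromosome 1, 45908068 to 45926523), which encodes ferroportin, the exporter that hepcidin acts on, was lower with APAP. It was at 64.5 and 94.4 CPM after APAP, compared with 238, 175 and 229 CPM in saline livers. The highest APAP library lay well below the lowest saline library. The APAP mean of 79.4 ± 21.2 CPM (SD, n = 2) was 37.1% of that in saline livers, 214 ± 34.4 CPM (SD, n = 3). The log2 fold change was −1.43 (SE 0.28, adjusted p = 0.0338 in the quasi-likelihood test of edgeR). It lay between −1.74 and −1.04 in the 13 alternatives, and the adjusted p was 0.0545 to 0.206 when any single library was left out. Ferroportin is made by Kupffer cells and hepatocytes. In TMM-scaled CPM, the sum of 10 Kupffer cell markers overlapped between the groups, and that of the hepatocyte markers did not. Most of the hepatocyte sum was Alb, which was not called (adjusted p = 0.512 in the quasi-likelihood test). Within each of these lists, some markers were higher with APAP and others lower. The part of either cell type in the level of Slc40a1 was not tested.
The ratio of Tfrc to Slc40a1 counts, uptake over export, was 0.768 and 0.853 with APAP and 0.108, 0.222 and 0.239 with saline. It was chosen after the values were seen, too.

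Genes of heme and iron uptake included 15 that were tested, of which 3 rose and none fell at an adjusted p under 0.05, where 3.70% of all genes rose and 3.53% fell, with a median log2 fold change of −0.06. By the thresholds the study names, 3 were higher and 2 lower, against 12.3% and 11.2% of all genes. The lower genes were Slc39a8 (24.9 and 25.8 against 54.2, 40.7 and 41.8 CPM) and Steap3 (8.52 and 6.98 against 27.7, 14.7 and 9.35 CPM). Their adjusted p was 0.0648 and 0.182 in the quasi-likelihood test. Lcn2, which binds iron-carrying siderophores and is both an acute phase product of hepatocytes and a granule protein of neutrophils, was at 2045 and 661 CPM after APAP against 11.8, 9.50 and 62.1 CPM after saline (log2 fold change 5.60, SE 0.97, adjusted p = 0.0231 in the quasi-likelihood test of edgeR). The summed neutrophil markers also did not overlap, as given above, and their part in the level of Lcn2 was not tested. Hmox1, which frees iron from heme, was at 89.9 and 122 CPM against 28.1, 16.1 and 41.4 CPM (log2 fold change 1.89, SE 0.38, adjusted p = 0.0358 from the same test). Slc48a1, a heme transporter, was at 110 and 112 CPM against 53.96, 40.7 and 31.9 CPM (log2 fold change 1.39, SE 0.26, adjusted p = 0.0280 from the same test). The calls of all 3 genes were lost without APAP replicate 1 and without WT2, those of Hmox1 and Lcn2 also without WT1, and those of Hmox1 and Slc48a1 also without APAP replicate 3.
Hpx and Hp, the plasma scavengers of heme and hemoglobin, had adjusted p-values of 0.322 and 0.814, at 6928 and 5861 CPM against 5145, 2937 and 4011 CPM for Hpx.

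The lists of storage, export and iron regulatory proteins held 5, 2 and 3 tested genes besides the 10 and gave 1 call, where 7.23% of all genes were called. Nubp1, a cytosolic assembly factor for iron-sulfur clusters, rose from 15.95, 12.95 and 17.1 CPM to 31.2 and 27.9 CPM (log2 fold change 0.95, SE 0.21, adjusted p = 0.0445 in the quasi-likelihood test of edgeR), and the call was lost whichever library was left out and with DESeq2's size factors in edgeR. The groups overlapped in Ncoa4, the receptor that delivers ferritin to lysosomes, at 4.64 and 29.2 CPM after APAP, compared with 29.8, 33.5 and 10.8 CPM in saline livers (adjusted p = 0.707). Of the ferroxidases that work with ferroportin, Cp was at 1745 and 1557 CPM against 1443, 1048 and 1480 CPM (adjusted p = 0.554), and Heph stayed under 1 CPM in every library.
Among the 3 genes of the iron regulatory system, Aco1 and Ireb2, which encode the proteins that bind iron responsive elements, were at 90.2 and 113 against 248.5, 193 and 120 CPM (adjusted p = 0.175) and at 69.2 and 72.1 against 87.5, 99.98 and 102 CPM (adjusted p = 0.224). Both had all APAP values below all saline values in TMM-scaled CPM, where 44.1% of all genes tested had no overlap in either direction. The 7 mitochondrial iron genes had log2 fold changes between −0.53 and 0.34 and no call, with Sfxn1, the most abundant, at 126 and 96.3 CPM against 113, 112 and 91.7 CPM.
Across the 65 tested iron genes other than the 10, 6 rose and 1 fell at an adjusted p under 0.05, against 3.70% and 3.53% of all genes, and the median log2 fold change was −0.03. Without 1 library this count of 7 became 0 to 5, being 0 without WT2 or APAP replicate 1.

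Compared per length of the principal transcript, mean levels in saline livers ran from Trf (4978 CPM per kb) through Ftl1 (2817), Hamp (2739), Fth1 (1521), Hamp2 (729.7), Tfr2 (92.8), Slc40a1 (63.5), Id1 (16.05) and Tfrc (8.13) to Bmp6 (1.205 CPM per kb). Among neighbors in this order, only Ftl1 and Hamp overlapped between libraries. With APAP, Fth1 (3182 CPM per kb) and Trf (3088) stood first, followed by Hamp (2449.8) and Ftl1 (1764.5), and the libraries of Fth1, Trf and Hamp overlapped, as did those of Hamp and Ftl1. Id1 (105 CPM per kb), Hamp2 (84.7) and Tfr2 (54.8) came next and overlapped as neighbors, above Slc40a1 (23.6), Tfrc (13.3) and Bmp6 (0.349).

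The genes whose levels followed Hamp most closely over the 5 libraries, by the root mean square difference of centered log2 CPM among 7892 genes of 10 CPM or more on average, were Zc3h11a (0.0879), Rnf152 (0.153), Asrgl1 (0.177), Ube2v1 (0.193) and Stard5 (0.207). Each of them was lowest in APAP replicate 3, like Hamp, but they were chosen for likeness to Hamp over these same libraries. With 5 libraries this is a description only.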

How the data were processed

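Total RNA of mouse liver was sequenced on an Illumina NovaSeq. The authors obtained read counts per gene with HISAT2 and deposited raw counts without normalization. The build is GRCm38 (mm10) per the submitters' processing notes, and the annotation and strand setting are not given in the sources used here. Of 34745 gene identifiers, 34267 were found in GENCODE M21, 27682 of them with the same span. A further 5 columns of FPKM were not used. The counts were filtered with filterByExpr of edgeR 4.0.16 (minimum count 10, minimum total 15), scaled by TMM and tested in R 4.3.3 with the quasi-likelihood test, APAP against saline, with Benjamini-Hochberg adjustment over 13734 genes. The planned design assumed 3 APAP libraries and was applied to 2. The fit was tested on simulated data. CPM used TMM-scaled library sizes, and 3 counts (0.176 to 0.269 CPM) were taken as the floor, which covers counting error only. The alternatives were DESeq2 1.42.0, 2 other tests of edgeR (exact and likelihood ratio), 3 other scalings, 2 other filters and each library left out. Members and gene lists were chosen with earlier results of these data known. Named genes were the 10 members, list genes with an adjusted p under 0.05 or, where a list had none, its 2 most abundant, and Il6, Socs3, Inhbb, Lcn2, Hmox1 and hemojuvelin, with the most abundant marker of each list (Alb, Cd5l, Stab1, Dcn, S100a9, Fn1 and Hbb-bs), Xist, Ddx3y and the 5 genes nearest to Hamp. Id2, Id3, Id4, Smad6, Atoh8, Bmp2, Tmprss6, Neo1, Fgl1, Fam132b, Hpx, Hp and Ncoa4 were added after their values were seen. So were Slc39a8, Steap3 and the markers Marco, Lyve1, Pdgfrb, Col1a1, Vsig4, Ecm1 and Klf1. 1 gene that the rule names is not reported here. Lengths and 50-base words come from the lowest-numbered APPRIS principal transcript in GENCODE M21.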

Additional observations from a re-analysis of the deposited data

How the results depend on the processing

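The number of genes with an adjusted p under 0.05 was 993, and it was 1835 with edgeR's likelihood ratio test, 1776 with its exact test and 2093 with DESeq2, which called 7 of the 10 members instead of 3. Leaving out 1 library gave 165 to 922 genes, 0 to 2 members and 0 to 5 other iron genes. The cause was not tested. The direction of Hamp reversed with scaling to library size only (0.29) and was −1.31 to 0.46 with 1 library left out (0.46 without APAP replicate 3), and the other 9 members kept their direction in all 13 alternatives. Scaling to library size only moved the median log2 fold change of all genes by 0.39. No paired analysis was possible because the saline columns are not tied to numbered samples. With 2 APAP libraries, the fits without either of them leave 1, which is assumed to vary like the saline libraries.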
